A study of Mus musculus with 6 samples.

Results

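The comparison described here is the difference between MondoA knockout and wild-type libraries in the stimulation response of natural regulatory T (nTreg) cells. The cells came from C57BL/6 mice aged 8 weeks. For each gene, the log2 fold of stimulated over resting wild-type cells was subtracted from that of stimulated over resting knockout cells. All mice carried Foxp3-Cre, which expresses Cre recombinase in Foxp3-positive cells, together with either intact MondoA (MondoA+/+Foxp3Cre, called wild type) or floxed MondoA (MondoAfl/flFoxp3Cre, called knockout), so the controls carry the Cre allele too. Resting nTreg cells were sorted as CD4+CD25hiYFP+ from spleen and lymph nodes. Stimulated nTreg cells were kept for 48 h on plates with antibodies to CD3 (5 µg/ml) and CD28 (2 µg/ml) and with 100 U/ml IL-2. A further pair of libraries came from iTreg cells, which were polarized in culture for 4 days from naive CD4 T cells sorted as CD4+YFP-CD44loCD62Lhi. Each of the 6 groups held 1 library, so the 4 nTreg libraries allow no test and no value below has a replicate check. The labels do not say how many animals gave each library. Of 17759 gene identifiers, 10820 had at least 50 counts in at least 1 of the 4 nTreg libraries and were compared. The 2 responses differed at least 2-fold, a difference of 1 on the log2 scale, for 553 of these genes (5.11%).

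MondoA, encoded by Mlxip, is a transcription factor that pairs with MLX, enters the nucleus when glucose phosphates are abundant and turns on Txnip and Arrdc4, arrestin-family genes whose proteins restrain glucose uptake. Regulatory T cells carry the lineage factor Foxp3 and restrain other immune cells. Triggering their T cell receptor and CD28 in the presence of IL-2 takes them from a quiescent state into growth and division, with synthesis of ribosomes, lipids and effector molecules. Interferons act through receptors, JAK kinases and STAT factors. A complex of STAT factors with IRF9 binds the interferon-stimulated response element, and the genes it turns on include the OAS and IFIT antiviral effectors, while the GTPases of the GBP and IRG families respond strongly to interferon gamma.

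In number, the 2 lists of interferon-inducible genes held the most genes with a difference of at least 2-fold among the lists examined. They were 14 of 34 tested (41.2%) and 9 of 18 (50%), all higher in knockout cells, against 2.43% of all genes. By share some shorter lists lay higher, such as the erythroid and platelet markers with 4 of 5 (80%). The promoters of 3 genes of the interferon lists are shown. For the first pair (Isg15, Ifit3) both genotypes were at a low level in stimulated cells. For the other (Tgtp1) the knockout was lower at rest and near the wild-type level in stimulated cells. Tgtp1 is a near-identical copy of Tgtp2, so its reads may be shared. Each sequence is the 250 bases before the gene's start in RefSeq (build GRCm38.p6), written 5′ to 3′ on the gene's strand. Capitals mark matches to a pair of GAAA copies with NN, any 2 bases, between them, the core of the interferon-stimulated response element, on either strand.
Isg15 (chr4:156200819-156201068, minus strand): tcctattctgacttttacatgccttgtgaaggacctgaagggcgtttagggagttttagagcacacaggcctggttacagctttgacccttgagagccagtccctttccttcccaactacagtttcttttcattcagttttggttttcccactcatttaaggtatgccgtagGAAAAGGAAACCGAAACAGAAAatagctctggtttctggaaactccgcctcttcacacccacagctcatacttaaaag
Ifit3 (chr19:34583279-34583528, plus strand): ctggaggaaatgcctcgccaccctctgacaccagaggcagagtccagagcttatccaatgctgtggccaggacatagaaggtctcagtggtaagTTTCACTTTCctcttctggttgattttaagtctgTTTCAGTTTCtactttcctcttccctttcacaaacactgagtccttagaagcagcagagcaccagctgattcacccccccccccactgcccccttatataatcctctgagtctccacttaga
Tgtp1 (chr11:48992247-48992496, minus strand): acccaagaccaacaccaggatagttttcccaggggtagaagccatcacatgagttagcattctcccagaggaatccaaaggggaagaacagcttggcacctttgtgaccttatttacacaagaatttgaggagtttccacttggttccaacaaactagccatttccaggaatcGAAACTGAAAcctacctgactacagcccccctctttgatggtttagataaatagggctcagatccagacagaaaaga
In the Isg15 promoter 3 overlapping matches began at positions -78, -72 and -66 from the gene's start, in the Ifit3 promoter 2 reverse-strand matches lay at -156 and -122, and in the Tgtp1 promoter 1 lay at -77. Of the 52 tested genes of the 2 interferon lists described below, 33 had a promoter in the RefSeq table and 20 of these (60.6%) held a match. Among those with a response difference of at least 2-fold the share was 11 of 14 (78.6%). Over all tested genes it was 293 of 8707 (3.37%), and 978 of all 32851 RefSeq promoters (2.98%) held one. Among all resting-level genes with a higher response in knockout cells 16 of 87 (18.4%) held a match. These include the 11 of 14 from the interferon lists, so this share does not come from a separate set of genes. Among all called genes with a lower response 8 of 229 (3.49%) held one. A match is a stretch of letters and was not shown to be bound.

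Total expected counts, the estimated reads per gene, lay between 9760274 and 10185623 per library, at which 5 normalised CPM (counts per 1e+06 of each library) correspond to 48.8 to 52.5 counts. Intervals given below are exact 95% intervals for counting error only. Xist, the RNA that coats the inactive X chromosome, had 7132 and 5247 counts in the resting wild-type and knockout libraries, and the 4 Y-linked genes examined had 0 counts in both. In the stimulated libraries Xist had 3 and 11 counts and the Y-linked genes 264 to 829 counts each, and the iTreg libraries also carried Y-linked reads. The resting and stimulated libraries thus differed in sex-linked genes in the same direction in both genotypes, and stimulation and sex cannot be told apart within either response. Since the Y-linked counts were 0 at rest, the resting and stimulated cells cannot all have come from the same mice. Words such as rose, fell, began, held and ended compare separate libraries and do not follow the same cells. Treg identity was present, with Foxp3 at 725 and 744 CPM in wild-type and knockout resting cells and 507 and 527 CPM after stimulation. Markers of other cells moved between the libraries, given in the order wild-type resting, knockout resting, wild-type stimulated and knockout stimulated. The 16 listed B cell markers summed to 481, 739, 223 and 281 CPM, none of them at 0, and the 19 listed myeloid and dendritic markers to 266, 255, 77.5 and 73.0 CPM, with 0, 0, 3 and 2 at 0. The 12 erythroid and platelet markers summed to 100.4, 20.1, 6.74 and 4.91 CPM, with 1, 1, 5 and 6 at 0, and the 11 CD8 and NK markers to 37.6, 27.9, 50.4 and 59.5 CPM, with 3, 2, 4 and 4 at 0. In bulk RNA fewer cells of a type and less RNA per cell cannot be told apart, and the part of these cells in the results below was not tested.

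The targeted gene and its targets kept their genotype difference after stimulation. Mlxip had 1431 and 1130 counts in wild-type and knockout resting cells and 1510 and 852 after stimulation, so both knockout libraries were lower and the gap was wider after stimulation. Its response was 0.09 in wild type and -0.30 in knockout, a difference of -0.40 (-0.56 to -0.23). The labels do not name the floxed exons, so these counts may hold reads from outside the deleted part. Txnip stood at 1499 and 405 CPM in resting and 141 and 24.3 CPM in stimulated wild-type and knockout cells. Its level was lower in stimulated than in resting cells in both genotypes, and the knockout level was the lower in each state. Its response difference was -0.64 (-0.86 to -0.44). Arrdc4 had 159 and 27 counts in resting and 103 and 5 counts in stimulated cells, and its response was -0.60 in wild type and -1.96 in knockout, a difference of -1.36 (-3.49 to -0.25). That value rests on 5 counts in the stimulated knockout library, and it was 0.24 on log2(FPKM + 1). Foxp3 (0.02) and Slc2a1 (0.18), the glucose transporter GLUT1, had response differences far under 2-fold.

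Most genes answered stimulation alike in the 2 genotypes. In wild-type cells 1632 genes (15.1% of those tested) rose and 1347 (12.4%) fell at least 2-fold, 2979 in all (27.5%). In knockout cells 1957 (18.1%) rose and 1672 (15.5%) fell, 3629 in all (33.5%). The log2 responses had a standard deviation across genes of 1.24 in wild type and 1.35 in knockout, and their Pearson correlation across the 10820 genes was 0.920, which describes these 4 libraries since genes are not replicates. The response difference had a median of 0.0188 and a standard deviation of 0.528. It was higher in knockout cells for 263 genes (2.43%) and lower for 290 (2.68%), a split that moved to 229 and 352 when counts were scaled to library totals without TMM factors, and to 204 and 337 on log2(FPKM + 0.1). For 485 of the 553 genes the interval excluded 0. Among the genes that rose in both genotypes, 87 rose more and 20 rose less in knockout cells, and among those that fell in both, 72 fell more and 45 fell less. The response was under 2-fold in wild type and a fall in knockout for 98 called genes, and a rise in knockout for 61. It was a fall in wild type and under 2-fold in knockout for 46, and a rise in wild type and under 2-fold in knockout for 43. Both responses were under 2-fold for 21 genes called higher and 52 called lower, and 8 genes changed at least 2-fold in opposite directions. Just inside the 2-fold limit were the chemokine Ccl22 at -1.002, Niban1 at -1.002 and Bhlhe41 at -1.003, and just outside it were Rrp12 at 0.999, Tert at -0.999 and Fam20a at 0.999.

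**Figure D1:**
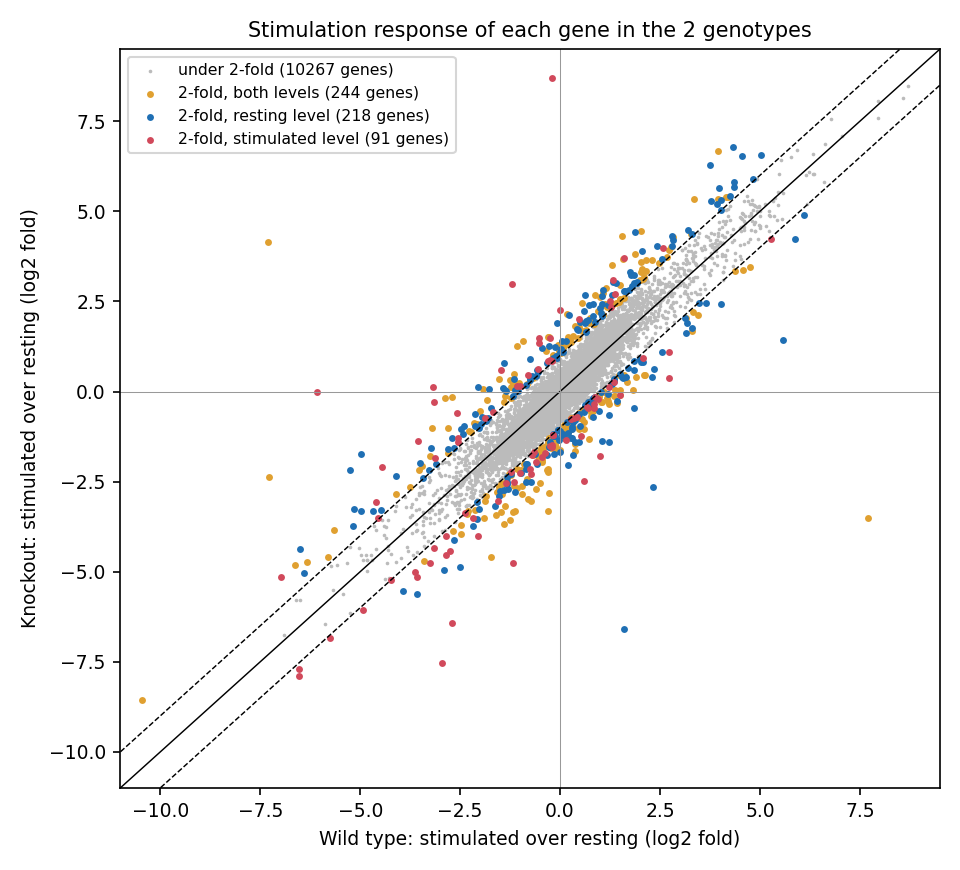
Log2 fold of stimulated over resting cells for each of 10820 genes in wild-type (x axis) and knockout cells (y axis), 1 point per gene, with colours for the level that holds most of the difference among the 553 genes that differ at least 2-fold. The solid line marks equal responses and the dashed lines a 2-fold difference, and most of the 10820 genes lie along the solid line.

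Each response difference equals the genotype fold (knockout over wild type) in stimulated cells minus that in resting cells, and can be divided between these 2 levels. The resting level held at least 75% of the difference for 218 of the 553 genes (2.01% of those tested), of which 116 had a higher and 102 a lower response in knockout cells. The stimulated level held at least 75% for 91 genes (0.841%), 35 higher and 56 lower. The other 244 (2.26%), 112 higher and 132 lower, took a larger share from both levels, which means that knockout cells began on one side of wild type and ended on the other. By the way these classes were set, the resting-level genes with a higher response had a median genotype fold of -1.31 in resting and 0.09 in stimulated cells, and those with a lower response 1.28 and -0.10. The genotype folds themselves reached 2-fold for 163 genes up (1.51%) and 188 down (1.74%) in resting cells, 351 in all (3.24%), and for 84 up (0.776%) and 92 down (0.85%) in stimulated cells, 176 in all (1.63%).

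**Figure D2:**
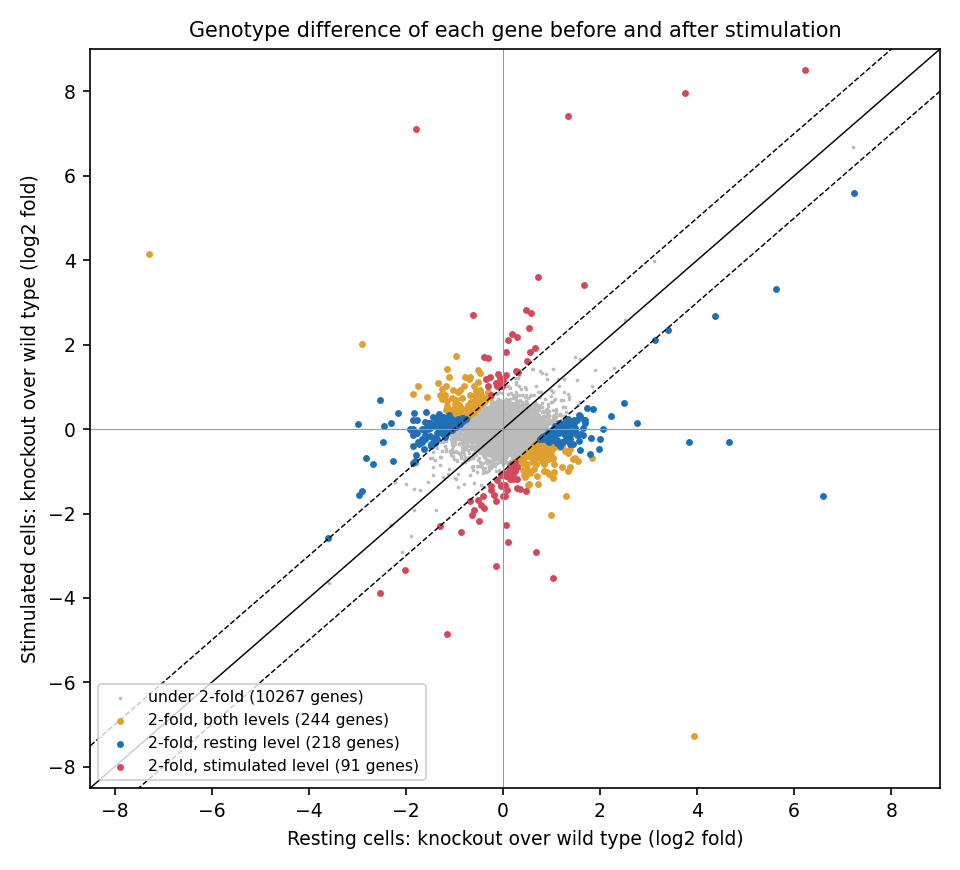
Log2 fold of knockout over wild type in resting (x axis) and stimulated cells (y axis) for the same 10820 genes, coloured as 218 resting-level, 91 stimulated-level and 244 mixed genes. Vertical distance from the solid line is the response difference, the dashed lines mark a difference of 1, and the resting-level genes spread to the left and right near the horizontal axis.

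The iTreg libraries, which share no library with the nTreg values, were used to see which genotype folds recurred. There 294 genes (2.72%) were at least 2-fold higher and 600 (5.55%) lower in knockout, 894 in all (8.26%). Of the 91 stimulated-level genes, 71 (78.0%) had an iTreg genotype fold of the same sign as in stimulated nTreg cells, against 6309 of all 10820 genes (58.3%), and for 39 of the 91 that iTreg fold reached 2-fold, against 620 of all genes. The median iTreg fold was 0.60 for the 35 with a higher and -0.85 for the 56 with a lower response. Of the 218 resting-level genes, 133 (61.0%) had the sign of their resting fold in iTreg cells, against 6455 of all genes (59.7%). For 36 of the 218 that iTreg fold reached 2-fold, against 618 of all genes. Both classes were thus above all genes in 2-fold iTreg differences of the same sign, and the resting-level class was near all genes in sign alone. Each class was chosen for large folds in nTreg cells and all genes were not, and the difference between the classes was not tested.

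Among antiviral effectors of interferon, knockout levels were lower at rest and fell less between resting and stimulated libraries. Of the 34 tested members of the OAS and IFIT list, 14 had a response difference of at least 2-fold, all higher in knockout cells and all held by the resting level, against 2.43% of all genes. The median difference was 0.88, against 0.0188 over all genes, and 32 of 34 lay above 0, against 5650 of 10820. The median response was -3.17 in wild-type and -2.14 in knockout cells, and the median genotype fold was -1.18 in resting, -0.20 in stimulated and -0.17 in iTreg cells. The summed level of the list was 5237 and 2570 CPM in resting and 1824 and 1722 CPM in stimulated wild-type and knockout cells. In resting cells 21 of the 34 were at least 2-fold lower in knockout, and in stimulated cells 3 were. The resting knockout library, low in these genes, also had more B cell (739 against 481 CPM) and less erythroid marker RNA (20.1 against 100.4 CPM) than the resting wild-type library, and their part was not tested.

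Ifit3, which binds other IFIT proteins on viral RNA, had resting levels of 238 CPM (wild type) and 33.7 CPM (knockout) and stimulated levels of 2.41 and 1.43 CPM. The resting wild-type library was the high one, and both stimulated libraries were low. The responses were -6.51 and -4.38, a difference of 2.13 (0.99 to 3.09). Oas2, an oligoadenylate synthetase that activates RNase L, went from 53.8 to 1.21 CPM in wild type and from 6.66 to 1.33 CPM in knockout, a difference of 3.10 (1.83 to 4.47). The resting fold of -2.98 held nearly all of it, with a stimulated fold of 0.12. Isg15, a ubiquitin-like modifier whose promoter carries the triple match, had 65.4 and 19.0 CPM in resting and 6.74 and 6.34 CPM in stimulated cells, a difference of 1.68 (1.12 to 2.26). The 2 genotypes met at the same stimulated level for this gene. Ifi44, an interferon-induced protein, had 55, 19, 3 and 3 counts in the library order given for the cell markers, and its difference of 1.51 had an interval of -1.42 to 4.62 that includes 0. 

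The transcription factors Irf7 and Stat2 were also lower in knockout cells at rest. Irf7, the factor that amplifies type I interferon production, stood at 261 and 112 CPM in resting and 11.5 and 11.2 CPM in stimulated cells, a difference of 1.18 (0.78 to 1.59). Stat2, a signalling factor of the type I interferon receptor, had 177 and 77.8 CPM in resting and 85.5 and 79.3 CPM in stimulated cells, a difference of 1.07 (0.89 to 1.26). The genotype levels of both lay close after stimulation. Irf9, the DNA-binding partner of STAT2, had a difference of 0.54 (0.35 to 0.74), under the 2-fold limit. Oasl2 and Xaf1 did not follow the list. Oasl2, an OAS-like antiviral gene, was lower in knockout cells both at rest (-3.58) and after stimulation (-3.66, on 36 and 1 counts), so its response difference was -0.08. Xaf1, an interferon-induced factor in cell death, was higher in knockout cells at rest (0.33) and more so after stimulation (1.27), a difference of 0.94 (0.60 to 1.32). Oas2, Oasl2 and Gbp10 lie on chromosome 5 in the RefSeq table, as does Mlxip, and a part of linkage to the targeted gene in their values was not tested.

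**Figure D3:**
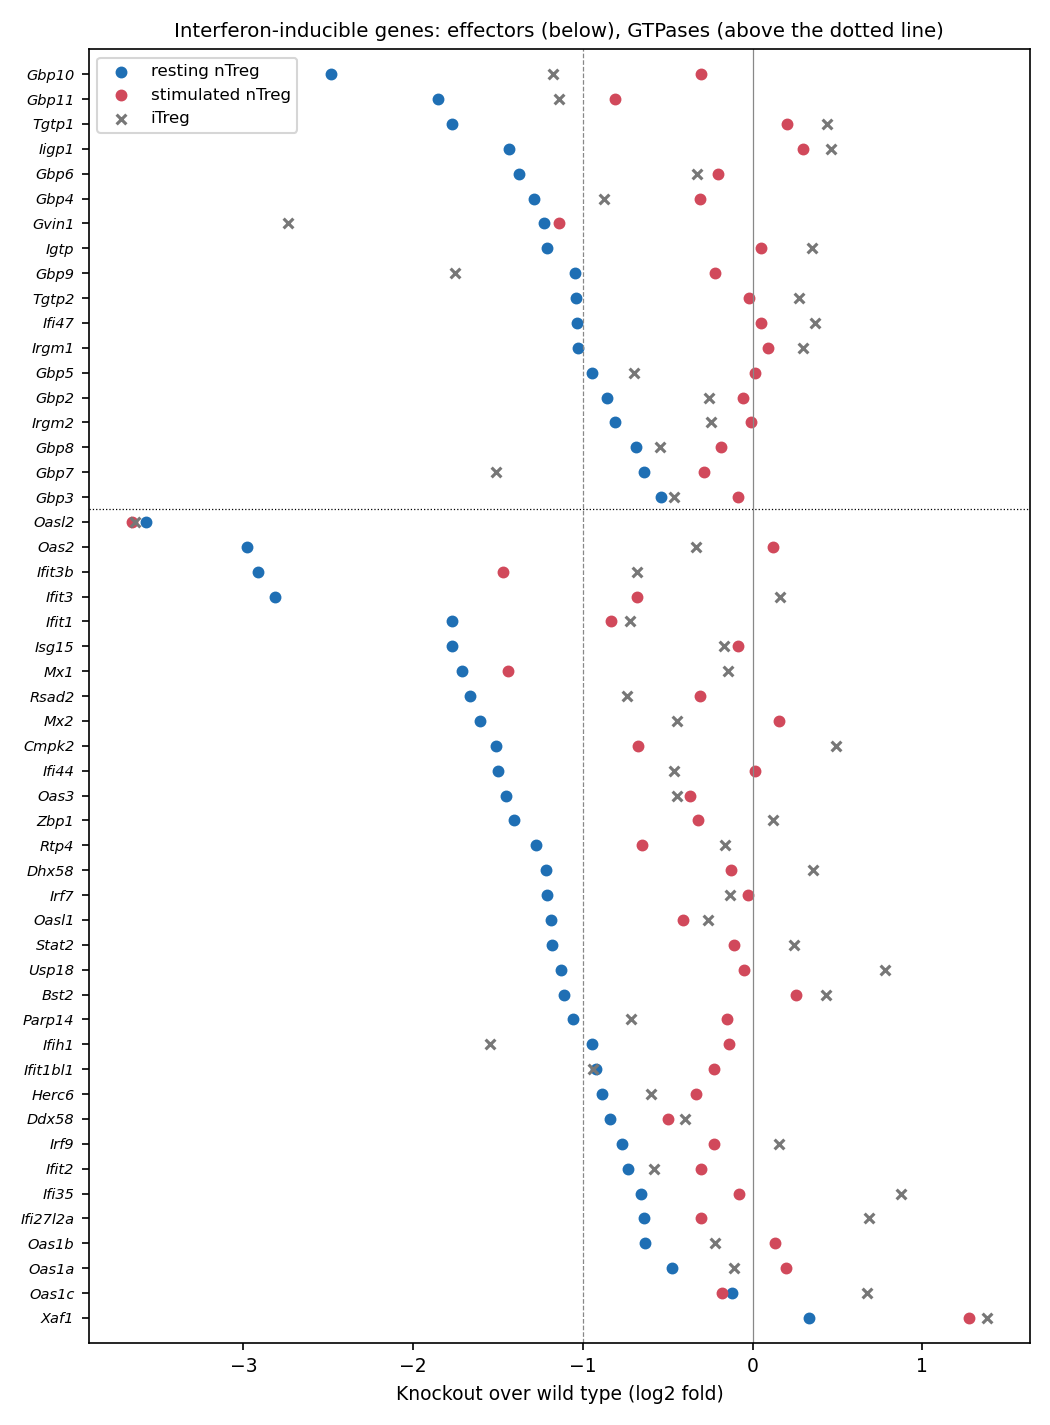
Log2 fold of knockout over wild type (x axis) for 33 of the 34 tested antiviral effectors and the 18 interferon-inducible GTPases (rows) in resting nTreg (blue), stimulated nTreg (red) and iTreg cells (grey crosses), with a dashed line at 2-fold lower. Resting folds reach -3.58 for Oasl2 and -2.98 for Oas2 while most stimulated folds lie near 0, and Xaf1 stands to the right in all 3 pairs.

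The GTPases that attack the membranes around intracellular microbes differed less between resting and stimulated cells, and their genotype gap also closed. All 18 tested members had a response difference above 0, with a median of 0.999. Of these, 9 (50%) were called higher and 0 lower, against 2.43% and 2.68% of all genes. The resting level held all 9. The median response was -0.25 in wild-type and 0.63 in knockout cells. At least 2-fold rises on stimulation numbered 2 in wild type and 7 in knockout, and falls 4 and 0. Gbp10, a guanylate-binding protein, stood at 86.5 and 15.3 CPM in resting and 20.6 and 16.7 CPM in stimulated wild-type and knockout cells, a difference of 2.18 (1.79 to 2.59). Wild-type cells came down towards the level at which knockout cells had begun. Tgtp1, an immunity-related GTPase, took the other course. It had 135 and 39.5 CPM in resting and 129 and 149 CPM in stimulated cells, so the wild-type level held and the knockout level came up to it, a difference of 1.98 (1.79 to 2.18). Tgtp1 and Tgtp2 are near-identical copies whose reads may be shared, and their summed counts gave a difference of 1.38. Summed, the pair had responses of -0.49 in wild type and 0.89 in knockout. The wild-type level thus held for Tgtp1 alone and fell for the pair. Iigp1, which loads onto the vacuole of Toxoplasma, rose in both genotypes, from 118 to 249.7 CPM in wild type and from 43.6 to 307 CPM in knockout, a difference of 1.73 (1.56 to 1.91). Igtp, a regulatory member of that family, had a difference of 1.26 with 380.1 and 164 CPM in resting and 516 and 533 CPM in stimulated cells. 

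The other interferon-inducible families were mixed. Of 16 tested Schlafen and IFI200 genes, 1 (6.25%) had a higher and 2 (12.5%) a lower response, against 2.43% and 2.68% of all genes. The median was 0.42 (0.26 on log2(FPKM + 1)). Slfn8, of the Schlafen family of growth and antiviral regulators, went from 178 to 40.8 CPM in wild type and from 36.8 to 24.0 CPM in knockout, a difference of 1.51 (1.22 to 1.80). Slfn9, of the same family, had the opposite sign, with 12.5 and 42.2 CPM in resting and 51.8 and 73.9 CPM in stimulated cells and a difference of -1.22 (-1.58 to -0.90). Reads of these related genes may be split between copies. Ifi204, a DNA sensor, had 383 and 179 counts in resting cells, 56 in stimulated wild type and 0 in stimulated knockout. With the 0 taken as a floor of 3 counts in that library, its difference was -3.04 or lower. Its iTreg counts were 117 (wild type) and 1 (knockout). The stimulated level set this difference, unlike those of the OAS and IFIT genes. Mndal, another IFI200 member, had a difference of 0.92 with resting levels of 385 and 199 CPM and stimulated levels of 113 and 111 CPM. 

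Among regulators and ligands of cytokine signalling, 4 of 23 tested genes of the SOCS, Pim and JAK-STAT list (17.4%) had a higher and 0 a lower response, against 2.43% higher and 2.68% lower of all genes (median 0.31). They were Stat2 and 3 others. Socs3, the feedback inhibitor of IL-6-type receptors, was at 97.9 and 54.1 CPM in resting and 96.6 and 118 CPM in stimulated cells, a difference of 1.14 (0.95 to 1.34). It was level across stimulation in wild type and came up from below in knockout. Lif (1.05, 0.54 to 1.60) and Osm (1.02, 0.59 to 1.48), both ligands of the IL-6 family, rose in both genotypes and further in knockout.

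Chemokine ligands were split by direction. Of 10 tested, 3 had a higher and 3 a lower response in knockout cells, against 2.43% and 2.68% of all genes. The median of 0.32 lay between 0.18 on log2(FPKM + 1) and 0.78 at a minimum of 200 counts. Ccl3 and Ccl4, inflammatory chemokines made by activated lymphocytes, rose from 44 to 461 and from 17 to 291 counts in wild type, and from 26 to 1069 and from 8 to 962 counts in knockout. Knockout cells were lower at rest and higher after stimulation for both genes. The differences were 2.01 (1.31 to 2.84) and 2.72 (1.59 to 4.33). The iTreg folds were 1.40 and 0.63. Ccl20, the ligand of CCR6, had 6, 2, 27 and 52 counts in the same library order, too few at rest for a firm value (1.95, -0.01 to 6.02). On the lower side, Ccl5, a chemokine of effector T cells, was level between genotypes at rest, at 315 and 348 counts, and fell to 31 and 10 counts, a difference of -1.52 (-2.90 to -0.59). Ccl22, a ligand of CCR4, went from 1317 and 558 counts to 68 and 12, and was the lower in knockout in each state. Cxcl2, a neutrophil attractant, fell from 59 and 43 counts to 7 and 0. Its level moved with the myeloid markers, which fell between resting and stimulated cells in both genotypes, and the part of myeloid cells was not tested.

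Several effector genes of type 1 immunity and killing had a higher response in knockout cells, but the Th1 list was split. Of 13 tested Th1 genes, 3 (23.1%) had a higher and 2 (15.4%) a lower response, against 2.43% and 2.68% of all genes. The 2 lower were Ccl5 (-1.52) and Cxcr3 (-1.31), and 6 of the 13 differences lay below 0. The Th1 median of 0.32 was -0.02 among members with at least 200 counts and 0.52 among those with at least 10. Of 9 cytotoxicity genes 3 (33.3%) were higher and 0 lower (median 0.30). Il12rb2, the signalling chain of the IL-12 receptor, stood at 54 and 11 counts in resting and 203 and 260 counts in stimulated wild-type and knockout cells. The resting knockout library was the low one, and the difference was 2.54 (1.74 to 3.86). Tnf, the inflammatory cytokine, rose from 16.8 to 75.4 CPM in wild type and from 8.37 to 107 CPM in knockout, a difference of 1.49 (1.10 to 1.92). Ifng, interferon gamma, had 46 and 77 counts in resting and 111 and 419 in stimulated cells. Knockout was the higher in each state and in iTreg cells, at 596 against 91 counts, and the response difference was 1.27 (0.62 to 1.89). At rest Ifng was thus higher and the interferon-inducible GTPases lower in knockout cells, and a link between them was not tested.

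Prf1, the pore-forming perforin, had 83 and 46 counts in resting and 67 and 127 in stimulated cells, with responses of -0.29 in wild type and 1.53 in knockout, a difference of 1.81 (1.15 to 2.58). Gzmb, granzyme B, rose from 39.5 to 648 CPM in wild type and from 17.3 to 695 CPM in knockout. The stimulated levels were nearly the same, and the difference of 1.28 (1.03 to 1.56) lay in the resting level. Nkg7, a protein of cytotoxic granules, was the reverse case, with 5.67 and 5.23 CPM at rest and 35.1 and 86.5 CPM after stimulation, a difference of 1.41 (0.82 to 2.01) held by the stimulated level. Cd8a, which marks CD8 T cells, had 77, 38, 221 and 290 counts in the same library order and a difference of 1.46 (0.86 to 2.15), in the direction of the cytotoxicity genes. Cd8b1, the other of the 2 tested CD8 and NK markers, had a difference of 0.43. Its wild-type response was -0.03 and its genotype fold in stimulated cells 0.04. The part of CD8 T or NK cells in the values of the cytotoxicity genes was not tested.

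**Figure D4:**
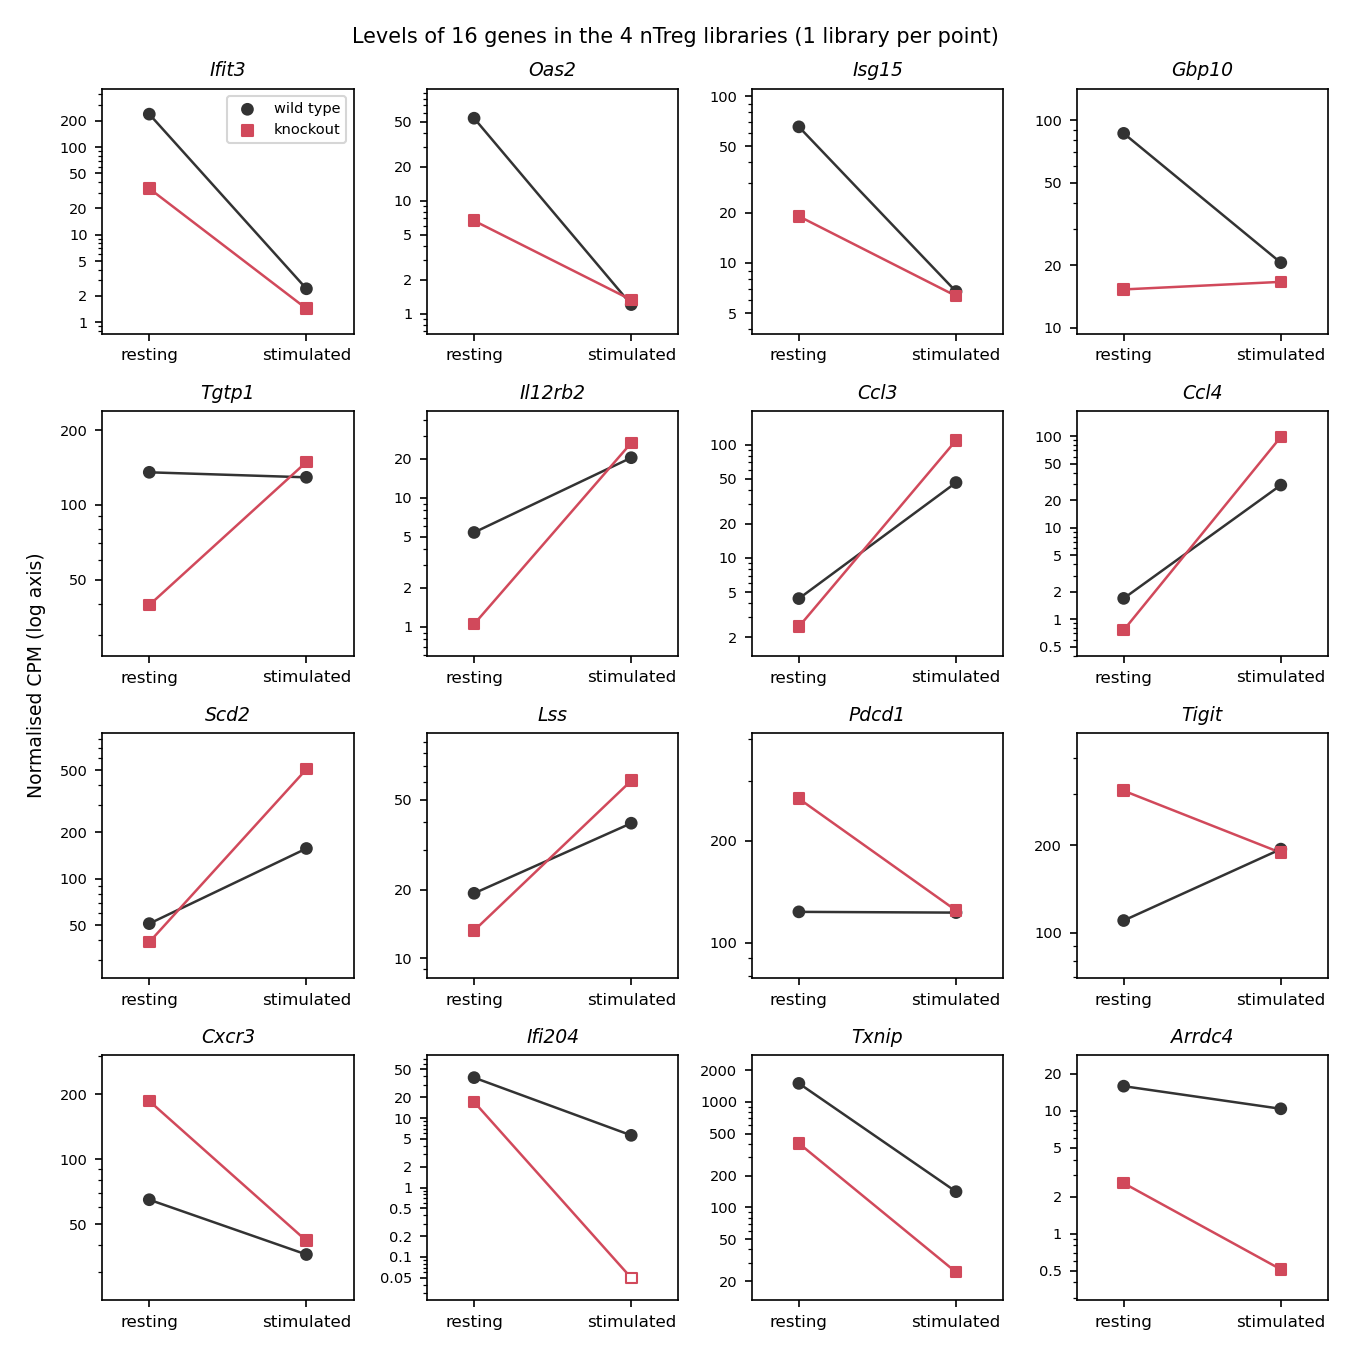
Normalised CPM (log axis) of 16 genes in resting and stimulated cells, with lines joining the wild-type (dark circles) and knockout (red squares) libraries, 1 library per point; the open square for Ifi204 marks 0 counts and is drawn at the bottom of its panel. Oas2, Isg15, Pdcd1 and Tigit start apart and meet, and Ifit3 draws closer with knockout still the lower. Scd2, Lss, Ccl3 and Ccl4 cross, and Txnip and Arrdc4 stay apart.

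A few genes of lipid synthesis had a higher response in knockout cells by at least 2-fold. Of 23 tested genes of cholesterol synthesis and uptake, 4 (17.4%) had a higher and 0 a lower response, against 2.43% and 2.68% of all genes, and 21 of 23 differences lay above 0 with a median of 0.50. At least 2-fold rises on stimulation numbered 11 in wild type and 16 in knockout. Lss, which closes the sterol rings, and Idi1, an isomerase of the isoprene units, were lower in knockout at rest and higher after stimulation. Lss went from 19.3 and 13.2 to 39.3 and 60.5 CPM (1.16, 0.79 to 1.54), and Idi1 from 38.7 and 24.9 to 157 and 215 CPM (1.08, 0.84 to 1.34). For Hsd17b7, a sterol reductase, the difference of 1.05 (0.61 to 1.52) lay in the resting level.

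In fatty acid synthesis the median was 0.32, and 0.17 among members with at least 10 counts. Of 14 tested genes 2 (14.3%) had a higher and 0 a lower response, against 2.43% and 2.68% of all genes. Both were stearoyl-CoA desaturases, which make monounsaturated fatty acids. Scd2 stood at 51.3 and 39.0 CPM in resting and 157 and 509.8 CPM in stimulated wild-type and knockout cells, a difference of 2.09 (1.89 to 2.30). Scd1 had 58 and 75 counts in resting and 39 and 181 in stimulated cells, a difference of 1.88 (1.19 to 2.68). For both genes the stimulated knockout library was the high one of the 4. In iTreg cells the genotype fold was -0.54 for Scd2 and 0.22 for Scd1. Acaca, acetyl-CoA carboxylase, came just under the limit at 0.92 (0.66 to 1.18).

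Myc, the growth regulator whose protein family shares partners with MLX, rose from 183 to 388 CPM in wild type and from 98.1 to 524 CPM in knockout, a difference of 1.33 (1.21 to 1.46). All 24 ribosome biogenesis genes had a difference above 0, with a median of 0.66, but 2 of them (8.33%) reached 2-fold, against 2.43% of all genes. These were Nop58, a core protein of small nucleolar particles, at 1.11 (0.90 to 1.33), and the nucleolar GTPase Gnl3 at 1.11 (0.83 to 1.40). Nop58 went from 60.2 to 211 CPM in wild type and from 31.2 to 237 CPM in knockout, and Gnl3 from 33.7 to 112 and from 18.7 to 134 CPM. The list's median genotype fold was -0.44 in resting and 0.21 in stimulated cells, so knockout cells began below and ended above wild type. Cytosolic ribosomal protein genes had a difference above 0 for 68 of 76, with a median of 0.23 and 0 past 2-fold. Their median genotype fold was -0.23 in resting and 0.0042 in stimulated cells. Of 9 tested heat shock genes 8 lay above 0 (median 0.53), with the mitochondrial chaperonin Hspd1 the largest at 0.75 (0.60 to 0.91) and none past 2-fold.

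In glycolysis 2 of 22 tested genes (9.09%) had a higher and 0 a lower response, against 2.43% and 2.68% of all genes. The list's median was 0.18, and 0.083 on log2(FPKM + 1). Hk2, the inducible hexokinase, went from 96 and 53 counts to 689 and 1004 (1.46, 0.97 to 2.02), and Eno3, an enolase, from 218 and 167 counts to 617 and 913 (1.03, 0.70 to 1.37). Both were lower in knockout cells at rest and higher after stimulation. Among 18 tested genes of the ATF4 response to amino acid shortage, 2 (11.1%) were higher and 1 (5.56%) lower (median 0.24). Slc7a5, a chain of the large neutral amino acid transporter, rose from 47.1 to 233 CPM in wild type and from 25.2 to 317 CPM in knockout, a difference of 1.34 (1.11 to 1.58). Its iTreg fold had the other sign from stimulated nTreg cells, at -1.17. Trib3, a pseudokinase induced by stress, had a difference of 1.06 (0.39 to 1.77), and Cebpb, a C/EBP factor, one of -1.16 (-1.56 to -0.78). Oxidative phosphorylation had 0 of 30 genes past 2-fold and a median of 0.07.

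Division genes rose strongly in both genotypes. Of 33 tested replication genes 32 rose at least 2-fold in each genotype. The difference was above 0 for 25 of the 33, with a median of 0.35 (0.19 on log2(FPKM + 1)). None was called lower and 1 (3.03%) was called higher, near the 2.43% of all genes. It was Mcm10, a loading factor of the replication fork, which had 30 and 10 counts at rest and 1032 and 1062 after stimulation (1.53, 0.63 to 2.92). All 28 mitosis genes rose at least 2-fold in both genotypes, by medians of 4.52 and 4.50, with a median difference of 0.06 and none called. Among 11 CDK inhibitors and cyclins D, Ccnd2, cyclin D2, was higher (1.05, 0.96 to 1.13) and the inhibitor Cdkn1c lower at -1.07, with an interval of -2.59 to 0.15 that includes 0. Early response genes of the T cell receptor had a median of -0.03. Of 28 tested, 3 (10.7%) were called higher and 0 lower, against 2.43% and 2.68% of all genes. Besides Myc these were Jun (1.11, 0.90 to 1.32), which fell less in knockout cells, and Fosl1, on 10 and 2 counts at rest (1.47, -0.02 to 5.48).

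Several inhibitory and follicular receptors that were high in resting knockout cells had lower responses there. Of 13 tested genes of the follicular helper and regulatory list, 4 had a lower and 0 a higher response, against 2.68% lower of all genes. The median difference was -0.72, with a median genotype fold of 0.53 in resting and -0.06 in stimulated cells. Pdcd1, the inhibitory receptor PD-1, stood at 123 and 266 CPM in resting and 123 and 125 CPM in stimulated wild-type and knockout cells. The resting knockout library was high and the other three libraries lay together, and the difference was -1.09 (-1.24 to -0.94). Cxcr4, the receptor for CXCL12, fell from 117 to 20.7 CPM in wild type and from 239.9 to 15.2 CPM in knockout (-1.48, -1.81 to -1.15). Tox2, a factor of follicular T cells, went from 177 and 444 counts to 68 and 71 (-1.17, -1.74 to -0.61). It began higher in knockout and ended at the wild-type level. Pou2af1, a coactivator that B cells also express strongly, had 128 and 277 counts in resting and 157 and 129 in stimulated cells (-1.29, -1.78 to -0.84). Blk, a kinase of B cells, was lower in response as well (-1.12, -2.04 to -0.27), the 1 of 13 tested B cell markers past 2-fold, in a list with 12 of 13 differences below 0. The summed B cell markers were highest in the resting knockout library, and their part in the follicular list was not tested.

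Among 22 tested genes of the Treg core, 3 (13.6%) had a lower and 1 (4.55%) a higher response, against 2.68% and 2.43% of all genes. The list's median was -0.04. Tigit, an inhibitory receptor, stood at 110.1 and 309 CPM in resting and 194 and 189 CPM in stimulated cells, with responses of 0.82 in wild type and -0.71 in knockout, a difference of -1.53 (-1.67 to -1.39). Klrg1, an inhibitory receptor of mature Treg cells, had the same form, with 19.8 and 43.6 CPM at rest and 32.5 and 32.6 CPM after stimulation (-1.12, -1.47 to -0.80). For both genes the stimulated levels of the 2 genotypes lay together. Nrp1, the semaphorin receptor that marks thymus-derived Treg cells, went from 206 and 359 CPM to 141 and 109.8 CPM (-1.16, -1.30 to -1.02). The higher response was that of Gpr83, a receptor enriched in Treg cells, at 152 and 62.6 CPM at rest and 216 and 239.7 CPM after stimulation (1.43, 1.28 to 1.60). Il2ra, the IL-2 receptor chain CD25 used in the sort, was lower in the resting knockout library, at 439 against 808 CPM, and level after stimulation, at 3515 and 3523 CPM, a difference of 0.88 (0.82 to 0.93) under the limit.

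A few homing genes had a lower response in knockout cells. Of 13 tested chemokine receptors 3 (23.1%) had a lower and 0 a higher response, against 2.68% lower of all genes. The other members were mixed, with 5 of the 13 differences above 0 and a median of -0.11. Cxcr3, the receptor of type 1 effector and Treg cells, went from 65.0 to 36.2 CPM in wild type and from 186 to 41.9 CPM in knockout (-1.31, -1.55 to -1.06). Ccr3, best known on eosinophils, had 19, 77, 22 and 31 counts in the same library order (-1.37, -2.60 to -0.27). In both the resting knockout library was the high one. Of 16 selectins, integrins and S1P receptors, 2 (12.5%) were lower and 14 of 16 differences were below 0 (median -0.36). Itgb1, the beta-1 integrin chain, went from 441 and 954 CPM to 283 and 287 CPM (-1.10, -1.19 to -1.005), its gap closing on stimulation. Itgb3, the beta-3 chain, went from 89.0 and 105 CPM to 56.2 and 32.6 CPM (-1.02, -1.27 to -0.79), higher in knockout at rest and lower after stimulation. Naive and quiescence genes had 1 of 20 (5%) called higher, against 2.43% of all genes (median 0.17). It was Igfbp4, an insulin-like growth factor binding protein, which rose in both genotypes from resting levels of 62.9 CPM (wild type) and 18.0 CPM (knockout) (1.19, 0.94 to 1.47).

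**Figure D5:**
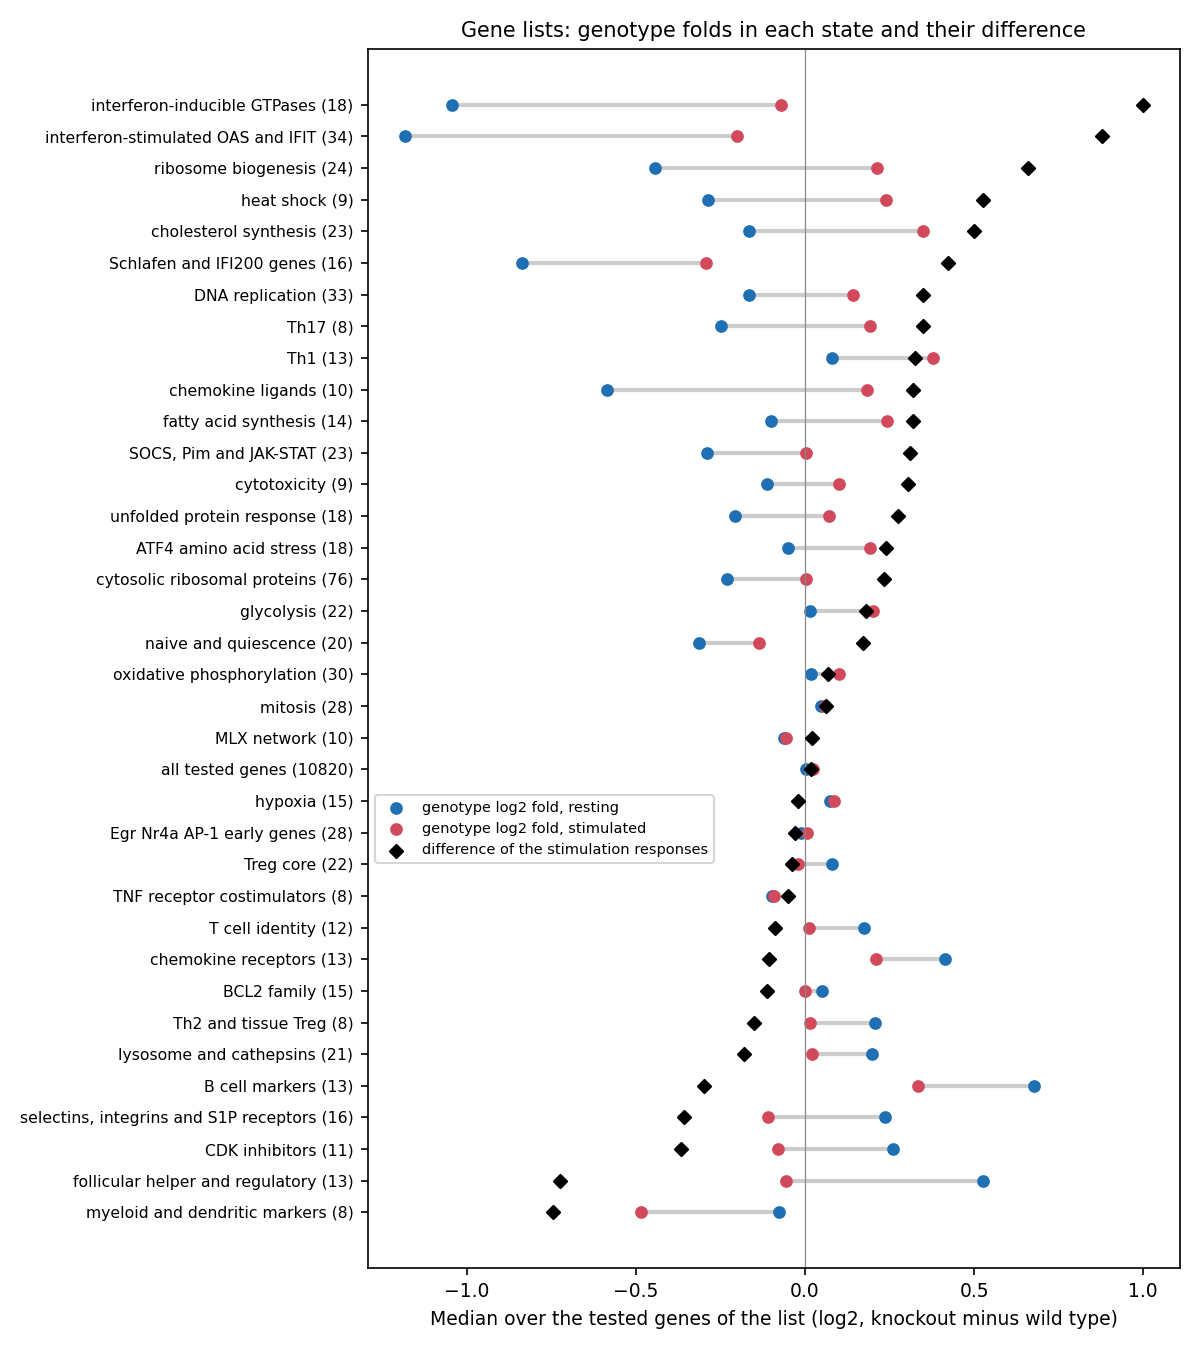
Median over the tested genes of each list (number in brackets) of the log2 fold of knockout over wild type in resting (blue) and stimulated cells (red) and of the response difference (black diamonds), for lists with at least 8 tested genes and for all 10820. The interferon lists lie furthest right, with diamonds at 0.88 and 0.999 and stimulated medians near 0. The myeloid and dendritic markers (-0.75) and the follicular list (-0.72) lie furthest left. The erythroid and platelet list (median 1.40, and 0.80 to 4.08 over other ways of processing) had 5 tested genes and is not drawn.

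The genes whose difference lay in the stimulated level had their genotype gap mostly or wholly after stimulation, or a wider one there than at rest. Ntn4, the secreted guidance protein netrin 4, had 171 and 116 counts in resting and 17 and 119 counts in stimulated wild-type and knockout cells. It was lost on stimulation in wild type and kept in knockout, a difference of 3.31 (2.62 to 4.35), and iTreg cells had 5 and 256 counts. Eaf2, a partner of the elongation factor ELL, did the opposite, with 84 and 95 counts at rest and 167 and 24 after stimulation. Its response was 0.99 in wild type and -1.80 in knockout (-2.79, -3.70 to -2.10), and iTreg cells had 179 and 26 counts. Apobec2, a member of the cytidine deaminase family, went from 36 and 34 counts to 55 and 4 (-3.09, -5.66 to -1.93). Ctse, the protease cathepsin E, was lower in knockout at rest and fell further, from 501 and 124 CPM to 109.8 and 10.7 CPM (-1.32, -1.66 to -1.04). It was the 1 called gene of 21 tested in the lysosome list (4.76%), against 2.68% lower of all genes.

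Ces2c, a carboxylesterase, fell from 178 and 385 counts to 21 in wild type and 0 in knockout, and Mpo, the myeloperoxidase of neutrophil granules, from 32 and 55 counts to 13 and 0. With the 0 taken as 3 counts their differences were -3.83 and -2.81 or lower, and neither gene had a count in iTreg cells. Among myeloid and dendritic markers 1 of 8 tested (12.5%) was higher and 2 (25%) lower in response, against 2.43% and 2.68% of all genes. Their median difference was -0.75, and lay between -0.96 and -0.38 over other ways of processing. Cd68, a macrophage protein, went from 83 and 162 counts to 216 and 155 (-1.33, -1.86 to -0.85). The other genes at the lower end had few counts after stimulation. Orm2, an acute-phase protein, had 23 and 4 counts there (-3.03, -5.62 to -1.78), Catsperd, a sperm calcium channel subunit, 7 and 1 (-2.88, -9.65 to -1.04), and Chadl, a chondroadherin-like protein, 11 and 6 (-2.53, -4.77 to -0.97).

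Some genes at the higher end, of several kinds, took a share from both levels. Ly6c1, a surface protein of activated and memory T cells, had 695 and 324 counts in resting and 103 and 273 in stimulated cells, so it fell in wild type and held in knockout (2.57, 2.21 to 2.99). Serpina3f, a serine protease inhibitor, rose from 37 to 155 counts in wild type and from 14 to 326 in knockout (2.43, 1.59 to 3.60). Knockout was lower at rest and higher after stimulation for both. Lipg, the endothelial lipase, rose from 8 and 1 counts to 27 and 56 (2.78, 1.08 to 9.63), and Arhgap29, a GTPase-activating protein, went from 57 and 15 to 6 and 12 (2.68, 1.19 to 4.91). The globin genes were also at the higher end, 3 of the 4 called ones held by the resting level and 1 by both levels. Hbb-bs, a beta-globin of red blood cells, had 315, 55, 8 and 14 counts in the same library order (3.24, 1.97 to 4.93). Of 5 tested erythroid and platelet markers 4 (80%) were called higher, against 2.43% of all genes. All 4 were globin genes, and that of Hbb-bt, at 1.03, turned to -0.58 with a prior count of 0.5. The alpha-globin copies Hba-a1 and Hba-a2 summed to 468 and 61 counts in resting and 22 and 12 in stimulated cells, a difference of 2.20. Wild-type resting cells thus held the most erythroid RNA of the 4 libraries, and its part in other resting-level differences was not tested.

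For 8 genes the responses were at least 2-fold in opposite directions, and 6 of these have names. Ier5l, related to an immediate early gene, had 14 and 111 counts at rest and 35 and 38 after stimulation, rising by 1.22 in wild type and changing by -1.40 in knockout. Npnt, the matrix protein nephronectin, went from 15 and 68 to 33 and 23 counts, with responses of 1.06 and -1.39. Stab1, a scavenger receptor, took the other direction, with 56 and 26 counts at rest, 25 and 61 after stimulation, and responses of -1.09 and 1.27. These 3 genes had between 14 and 111 counts in the 4 libraries. The remaining named genes, Tmem254c, Eno1b and Hmga1b, are near-identical copies of other genes, and so is Tmem254b. Tmem254c had 1, 46, 625 and 2 counts in the same library order and Tmem254b 529, 912, 57 and 699, high where the other was low. Their own differences of -11.21 and 2.88 became -0.74 when the counts of the 3 copies were summed. Eno1b had 202 counts in resting knockout cells and at most 4 elsewhere, and with Eno1 added its difference was 0.42. Hmga1b had a difference of 4.20, with 2923 counts in stimulated knockout and 10 in stimulated wild-type cells, and with Hmga1 added the difference was 0.61. How the reads were divided between these copies is not given in the sources used here, so the values of single copies are uncertain.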

How the data were processed

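RNA from 6 libraries, 1 in each group, was sequenced, and groups were taken from the labels. The deposited expected counts are, per the file headers, estimated reads per gene and were not normalised by the authors. They were rounded, and 76.0% of listed values were whole within 0.005 beforehand. The deposited FPKM values, scaled by the authors to transcript length and library size, served only for alternatives. Bowtie2, HISAT and mm9 appear in the submitters' processing notes, without roles. The quantifier, strandedness and annotation are not given in the sources used here.

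Of 17759 gene identifiers, 17711 were matched to RefSeq symbols (GRCm38.p6), and the 48 others (0.0561 to 0.0773% of counts) stayed in. TMM factors (edgeR 4.0.16, R 4.3.3) on all genes lay between 0.961 and 1.06. A prior count of 2 was added before log2 folds of CPM were taken, for genes with at least 50 counts in any nTreg library, and genes were called at a 2-fold difference. Intervals are exact conditional 95% intervals. The floor for a library at 0 was 3 counts. Calculations used Python 3.11.15, numpy 2.4.6, pandas 2.3.3, scipy 1.17.1, statsmodels 0.14.6 and matplotlib 3.10.9, and were tested on simulated data.

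The comparison, its genes and the 39 gene lists were chosen with earlier results of these data known. Named genes were Mlxip, Txnip, Arrdc4, Foxp3 and Slc2a1, the 12 highest and 12 lowest differences, the 6 largest in each level class, up to 8 with opposite responses and up to 4 of each list, without predicted, unnamed, receptor-segment and sex-linked genes. Irf7, Irf9, Oasl2, Xaf1, Ifng, Il2ra, Ccl22 and the genes at the limit were added after their values were seen, and some genes that the rule names are not reported here. Alternatives changed the scaling, prior count, count minimum, class limits, unit and gene set.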

Additional observations from a re-analysis of the deposited data

Results flagged for a closer look

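In 5 named genes the libraries of one genotype went up at least 2-fold on stimulation and those of the other went down at least 2-fold, with counting intervals of both responses off 0, and this difference was not tested, since each group held 1 library. The response difference (knockout minus wild type, log2) was -11.21 for Tmem254c and 4.20 for Hmga1b, both near-identical copies of other genes, and with the copies summed it was -0.74 and 0.61. It was -2.62 for Ier5l, -2.44 for Npnt and 2.36 for Stab1, on 14 to 111 counts in the 4 libraries.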

How the results depend on the processing

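Each library is the only one of its group, so no replicate could be left out. No paired analysis was possible because each group held 1 library and the labels carry no replicate numbers. The counts of called genes moved with the count minimum, the unit and the class limits. In the order higher, lower, stimulated level, resting level, both levels and stimulated-level genes with the same sign in iTreg cells (263, 290, 91, 218, 244 and 71 as reported), the counts were 594, 639, 255, 426, 552 and 165 at a minimum of 10 counts, 135, 122, 41, 111, 105 and 32 at 200 counts, 1152, 1120, 513, 676, 1083 and 277 with no minimum, and 105, 180, 47, 125, 113 and 41 on log2(FPKM + 1). With other class limits 150 genes were mixed at a looser limit of 66.7%, and at 90% there were 57 stimulated-level and 131 resting-level genes, with 47 of the former sharing their sign in iTreg cells. Of the other alternatives, median-of-ratios scaling gave 259 higher and 298 lower genes, removal of a length trend 266 and 286, calls whose interval excludes 0 229 and 256, and leaving out genes of X and Y, chosen after seeing the data, 254 and 280. The Th1 median turned to -0.0211 at 200 counts and Arrdc4 to 0.24 on log2(FPKM + 1). Hbb-bt, another globin gene, turned from 1.03 to -0.58 with a prior count of 0.5 and to -0.26 on log2(FPKM + 0.1). With copies summed, also chosen after seeing the data, Tmem254b turned to -0.74 and Eno1b to 0.42. The cause of these turns was not tested. Over the alternatives the median of the OAS and IFIT list lay between 0.80 and 0.93, that of the GTPases between 0.86 and 1.01, and that of the follicular list between -0.81 and -0.70. Other list medians moved more, with 18 values moved over lists and alternatives besides that of Th1 which turned. Their ranges were widest for erythroid and platelet markers (0.80 to 4.08), MondoA targets (-1.13 to -0.18) and CD8 and NK markers (0.35 to 0.97). Next came chemokine ligands (0.18 to 0.78), myeloid and dendritic markers (-0.96 to -0.38) and Th1 (-0.02 to 0.52). Among the other ranges were those of fatty acid synthesis (0.17 to 0.32), replication (0.19 to 0.35), metallothioneins (0.017 to 0.30), and Th2 and tissue Treg (-0.23 to 0.015). Some genes at a few counts in a library, such as Ifi44 after stimulation or Ccl20 at rest, have intervals that include 0, and the spread between libraries of 1 group was not measured.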

Other observations

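Some lists that the text has not described also held values worth recording. Of 8 tested Th17 genes 2 (25%), among them Ccl20, had a higher and 0 a lower response (median 0.35). Over all genes the shares were 2.43% and 2.68%. Of 15 tested hypoxia genes 2 (13.3%) were higher (median -0.02). Car12, a carbonic anhydrase, went from 53 and 26 counts to 380 and 430 (1.23, 0.56 to 2.06). Ak4, an adenylate kinase, went from 3 and 1 to 86 and 119 (1.24, -1.53 to 7.87). In the BCL2 family 1 of 15 (6.67%) was higher and 1 (6.67%) lower. The lower one was Bmf, a BH3-only activator of cell death, with 76 and 126 counts at rest and 25 and 17 after stimulation (-1.14, -2.27 to -0.14). The other, Bcl2a1a, had 62 and 19 counts at rest and 0 in both stimulated libraries, so its stimulated genotype fold is not known, and it has near-identical copies. The unfolded protein response (18 genes, median 0.27), the Th2 and tissue Treg list (8, -0.15, which was 0.015 with no count minimum), TNF receptor costimulators (8, -0.05), T cell identity genes (12, -0.09) and metallothioneins and zinc transporters (7, 0.10) had 0 genes past 2-fold, and the MLX network had Myc as its 1 of 10.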
